A study of Homo sapiens with 4 samples.

Results

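The genes FHIT, WWOX, IMMP2L and MACROD2 are each about 1 Mb long or longer and lie at chromosomal fragile sites. They were chosen by name, with earlier results of these data known, and their regions come from lists limited by p and log2 fold. Of the 100205 regions that gained ATAC-seq signal with at least 1 of 3 anthracyclines, 60 overlapped these 4 gene bodies by at least 1 bp. MACROD2 held 26 of the 60, WWOX 20, IMMP2L 11 and FHIT 3. The bodies were taken on GRCh37 as FHIT, chromosome 3, 59.735 to 61.237 Mb; WWOX, chromosome 16, 78.133 to 79.247 Mb; IMMP2L, chromosome 7, 110.303 to 111.203 Mb; and MACROD2, chromosome 20, 13.976 to 16.034 Mb. Together they span 5.574 Mb.

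ATAC-seq marks accessible DNA by where a transposase can insert sequencing adapters. It was run on K562, an established human chronic myelogenous leukaemia line, without treatment or 4 h after addition of doxorubicin at 10 µM (Doxo), of its N,N-dimethyl derivative at 10 µM (diMe-Doxo) or of aclarubicin at 20 µM (Acla). There was 1 GEO sample per group, but each list of gained regions held 2 treated libraries and the same 2 untreated libraries. The labels do not state whether paired libraries are independent cultures, so every p-value measures only the spread between these libraries, which may be technical. A region was gained, per the authors' deposited lists, where the p did not exceed 0.05 and the log2 fold over untreated cells reached 1.5. A region missing from a list may have gained less, and lost regions were not analysed here, so the identity of the line could not be checked by its markers. K562 is aneuploid, and the copy number of the 4 genes was not measured here. Acla was used at another dose, so its values stand beside the others without a comparison. The 3 comparisons share their untreated libraries.

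Common fragile sites are stretches of chromosome that tend to break when DNA replication is slowed, and many of them lie inside very long genes. Such genes take long to transcribe and tend to replicate late, and their introns are deleted in many tumours. Doxo intercalates into DNA, poisons topoisomerase II and evicts histones, whereas diMe-Doxo and Acla are known for histone eviction with little or no DNA breakage. FHIT, at the site FRA3B, encodes a hydrolase of dinucleoside polyphosphates, and WWOX, at FRA16D, encodes an oxidoreductase with WW domains. Both are regarded as tumour suppressors. IMMP2L encodes a peptidase subunit of the mitochondrial inner membrane, and MACROD2 encodes an enzyme that removes ADP-ribose from proteins.

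The sequences just before the transcription start are shown for MACROD2, the only one of the 4 whose start lay in a gained region, and for FHIT, the body with the fewest gained regions. They are the 250 bases upstream of the start in RefSeq (GRCh38.p14), read 5′ to 3′ on the strand of the gene, with each CG in capitals.
MACROD2: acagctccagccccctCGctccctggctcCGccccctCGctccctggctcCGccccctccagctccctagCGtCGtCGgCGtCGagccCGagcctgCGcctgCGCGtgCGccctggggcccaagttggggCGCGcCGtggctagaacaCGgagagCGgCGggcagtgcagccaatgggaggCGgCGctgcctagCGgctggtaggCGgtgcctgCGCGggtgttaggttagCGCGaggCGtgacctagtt
FHIT: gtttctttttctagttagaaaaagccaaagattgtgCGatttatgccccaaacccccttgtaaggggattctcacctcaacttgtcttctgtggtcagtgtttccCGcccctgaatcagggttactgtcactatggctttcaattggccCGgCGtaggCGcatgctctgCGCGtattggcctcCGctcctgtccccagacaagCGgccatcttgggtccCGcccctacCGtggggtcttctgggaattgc
The MACROD2 sequence held 29 CG and the FHIT sequence 11, against a median of 11 over 35116 RefSeq promoters of this length. Of those promoters, 14.1% held at least as many CG as MACROD2 and 50.3% at least as many as FHIT. The WWOX promoter held 27 CG and that of IMMP2L 24. The GC box GGGCGG, searched on both strands as GGGCGG or CCGCCC, occurred 2 times before MACROD2, 2 times before FHIT, 1 time before WWOX and 5 times before IMMP2L, and 42.6% of the promoters held it. These matches describe the letters only. The lists are on GRCh37, so the promoters were not placed on the gained regions by coordinate, and whether a region lay in an exon or an intron was not analysed here.

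Doxo gained 28 regions in the 4 bodies, diMe-Doxo 23 and Acla 45. The Doxo list held 66.6% of all 100205 regions, the diMe-Doxo list 52.7% and the Acla list 61.2%. These genes were sparse in gained regions with every drug.

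FHIT was the sparsest. It held 1.33 regions per Mb with Doxo, 1.33 with diMe-Doxo and 0.666 with Acla. The mean over the 2848 windows of 1 Mb that held any listed region was 23.4, 18.5 and 21.5, and 98.6%, 94.2% and 97.8% of windows were at least as dense. WWOX held 8.08, 5.39 and 10.8 regions per Mb in the same order of drugs, IMMP2L 8.89, 5.56 and 6.67, and MACROD2 4.37, 4.86 and 12.6. These 3 genes were all less dense than the mean window with each drug, and between 60.0% and 92.2% of windows were at least as dense as they were. Gained regions covered 0.476% of MACROD2 with Doxo, 0.565% with diMe-Doxo and 1.22% with Acla, or 9786, 11633 and 25073 bp. In WWOX they covered 6264, 5031 and 11683 bp, in IMMP2L 6674, 4801 and 6975 bp and in FHIT 2133, 2185 and 1334 bp.

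**Figure D1:**
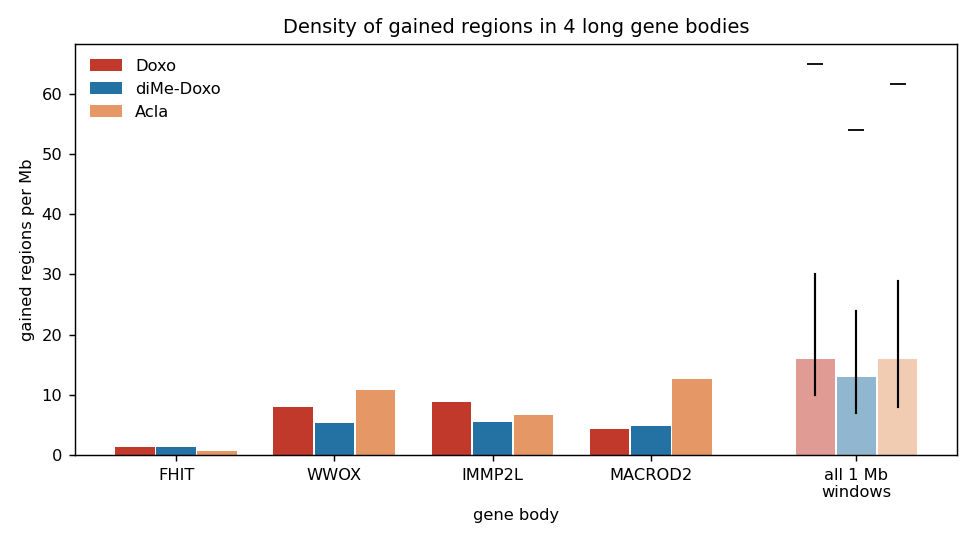
Gained regions per Mb (vertical axis) in each of the 4 gene bodies, by drug. The pale bars on the right are the median over 2848 windows of 1 Mb, with a line from the 25th to the 75th percentile and a dash at the 95th. All 4 bodies lie below the pale bar of the same drug, and the highest, MACROD2 with Acla, stands at 12.6.

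The 1 Mb on each side of every body was counted for comparison. Each body was less dense than its flanks with every drug. In FHIT the density of the body was 0.380 times that of its flanks with Doxo, 0.666 times with diMe-Doxo and 0.222 times with Acla, from few regions. The ratio was 0.539, 0.513 and 0.513 in WWOX, 0.349, 0.176 and 0.185 in IMMP2L and 0.364, 0.423 and 0.632 in MACROD2. Over the 4 genes together it was 0.359 with Doxo (95% counting interval 0.228 to 0.547), 0.297 with diMe-Doxo (0.181 to 0.469) and 0.404 with Acla (0.283 to 0.565). Without IMMP2L the diMe-Doxo ratio was 0.481, above the upper limit of its interval. The intervals cover counting error only and treat regions as independent, which neighbouring regions need not be.

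The flanks differed from gene to gene. IMMP2L lay between dense flanks: in the 1 Mb before its start stood 31 regions of the Doxo list, 18 of the diMe-Doxo list and 23 of the Acla list, and the 1 Mb beyond its 3′ end held 20, 45 and 49. RefSeq places DOCK4 before the IMMP2L start. The flanks of FHIT were sparse too, with 5, 4 and 4 regions before the start and 2, 0 and 2 beyond the 3′ end, next to CFAP20DC. WWOX had 10, 8 and 18 regions before the start and 20, 13 and 24 beyond the 3′ end, where RefSeq places MAF. MACROD2 had 8, 9 and 15 before the start and 16, 14 and 25 beyond the 3′ end.

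At the matched dose of 10 µM, the number of Doxo regions over that of diMe-Doxo regions was 1.26 over the genome. It was 1.6 in the IMMP2L body, from 8 and 5 regions, 1.72 before its start and 0.444 beyond its 3′ end, so the 2 sides of IMMP2L lay on opposite sides of the genome's ratio. In the WWOX body it was 1.5, from 9 and 6 regions, and in MACROD2 0.9, from 9 and 10. Each of these ratios compares 2 lists, with no replicate of the count.

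**Figure D2:**
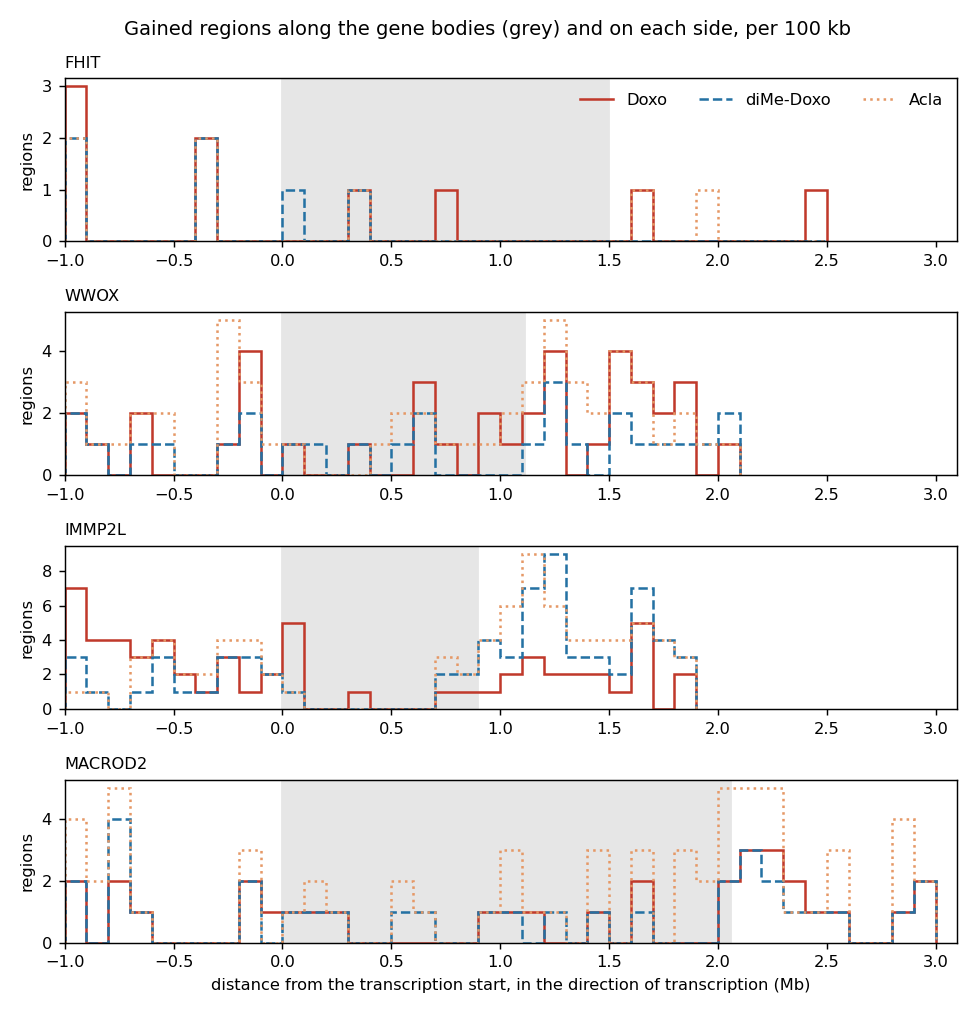
Number of gained regions in bins of 100 kb (vertical axis) by distance from the transcription start in the direction of transcription (Mb), 1 panel per gene, with the body in grey. The middle of the IMMP2L body is almost empty between dense flanks, and the 100 kb bins of MACROD2 hold at most 5 regions of a drug.

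Inside the bodies the regions left long stretches empty. In IMMP2L, 5 of the 11 regions lay in the 20% of the body next to the start and 5 in the 20% next to the 3′ end, with 1 between. No region of any drug lay in a stretch of 409 kb, 45.4% of IMMP2L, and with diMe-Doxo and Acla the empty stretch reached 748 kb, or 83.2%. LRRN3, a gene for a membrane protein with leucine-rich repeats, is nested in IMMP2L. In FHIT the 802 kb next to the 3′ end, 53.4% of the body, held no gained region of any drug. In MACROD2 the longest empty stretch was 347 kb over all drugs and 770 kb with Doxo. In WWOX it was 198 kb over all drugs. Counted in 5 equal pieces from the start, MACROD2 held 3, 0, 3, 2 and 1 regions with Doxo, then 3, 2, 2, 3 and 0 regions for diMe-Doxo, while Acla gave 4, 3, 5, 6 and 8. In WWOX the counts were 1, 1, 1, 3 and 3 with Doxo, then 2, 1, 2, 1 and 0 for diMe-Doxo, while Acla gave 1, 0, 4, 3 and 4. Whether the drugs differ in where along the body their few regions lie was not tested. No diMe-Doxo region lay in the last piece of MACROD2 or WWOX, but in IMMP2L 4 of the 5 diMe-Doxo regions did. FLRT3, a gene for a membrane protein of the fibronectin leucine-rich family, is nested in MACROD2.

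The distance from the transcription start to the nearest gained region was 3.16 kb in WWOX, 9.72 kb in IMMP2L and 28.8 kb in FHIT. In MACROD2 a gained region overlapped the start. At the other 3 starts no gain was listed with any drug, which says nothing about how accessible they were, because the lists hold gained regions only.

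The genes also differed in which drugs shared their regions. Among all listed regions, 28.7% were gained with all 3 drugs, 14.6% with diMe-Doxo and Acla but not Doxo, 13.8% with Acla alone and 29.5% with Doxo alone. In the 4 bodies together 14 of the 60 regions (23.3%) were gained with all 3 drugs, 5 (8.33%) with diMe-Doxo and Acla, 23 (38.3%) with Acla alone and 11 (18.3%) with Doxo alone. MACROD2 held no region of Doxo alone, and 14 of its 26 regions (53.8%) were gained with Acla alone and 7 (26.9%) with all 3 drugs. In WWOX, 8 of 20 regions (40%) were gained with Acla alone and 5 (25%) with Doxo alone. In IMMP2L the largest class was another: 5 of its 11 regions (45.5%) were gained with Doxo alone. A region counted as gained with 1 drug alone may still have gained less with another.

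**Figure D3:**
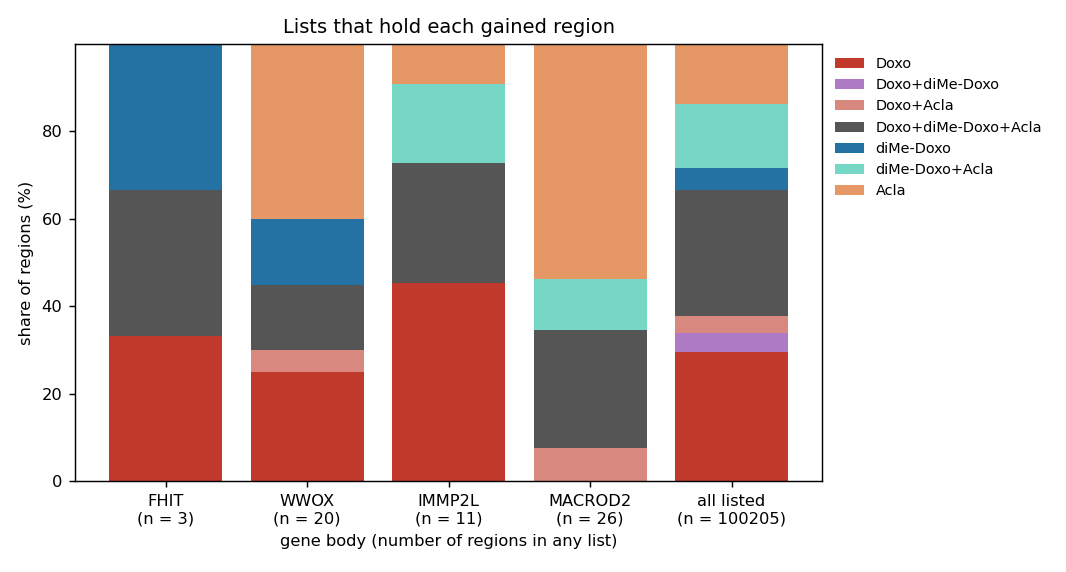
Share of each gene's gained regions (percent, vertical axis) by the set of drugs whose lists hold them, 1 bar per gene, with all listed regions as the last bar. The number of regions stands under each bar. Regions of Doxo alone make up 29.5% of all listed regions, 45.5% of those in IMMP2L, 25% of those in WWOX and none of those in MACROD2.

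Nearly all gained regions in the 4 bodies had no peak in untreated cells. In FHIT, WWOX and MACROD2 no listed region had an untreated peak, and in IMMP2L 1 Doxo region and 1 Acla region had one. In the whole lists 82.6% of the Doxo, 88.8% of the diMe-Doxo and 91.3% of the Acla regions had none. Treated peaks were not called everywhere either: at the MACROD2 regions a peak stood in both treated libraries at 33.3% with Doxo, 70% with diMe-Doxo and 92.3% with Acla, against 63.4%, 70.1% and 73.5% in the lists. In WWOX these shares were 44.4%, 50% and 58.3%, each below that of the list. In IMMP2L they were 87.5%, 60% and 100%, above the list with Doxo and Acla and below it with diMe-Doxo.

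In the authors' deposited tables the median log2 fold over untreated cells at the MACROD2 regions was 3.04 with Doxo, 2.74 with diMe-Doxo and 3.09 with Acla, against 2.95, 2.52 and 2.62 in the whole lists. The WWOX medians were 2.60, 2.25 and 2.10, below those of the lists. The IMMP2L medians were 2.77, 2.43 and 2.41. Both untreated libraries held 1 read at 66.7% of the MACROD2 regions with Doxo, 60% with diMe-Doxo and 57.7% with Acla, against 25%, 32.5% and 34.4% in the lists, and a value of 1 read may stand for none. Folds over such values depend on it. At the 7 MACROD2 regions gained with all 3 drugs the reads summed to 430 and 450 with Doxo, 501 and 434 with diMe-Doxo, then 1040 and 767 with Acla, against 9 and 9 in untreated cells. Such raw reads are not on 1 scale. In the Doxo list 1 read stood for a signal of 0.711 and 0.704 if treated, and 1.44 and 1.39 if untreated. For diMe-Doxo these factors were 0.446 and 0.460 against 2.41 and 2.03, and for Acla 0.374 and 0.384 against 2.85 and 2.44. The median log2 fold at these 7 regions was 3.32 with Doxo, 3.17 with diMe-Doxo and 3.86 with Acla. These regions are members by their gain with each drug, so the distance to the untreated reads is a description only.

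**Figure D4:**
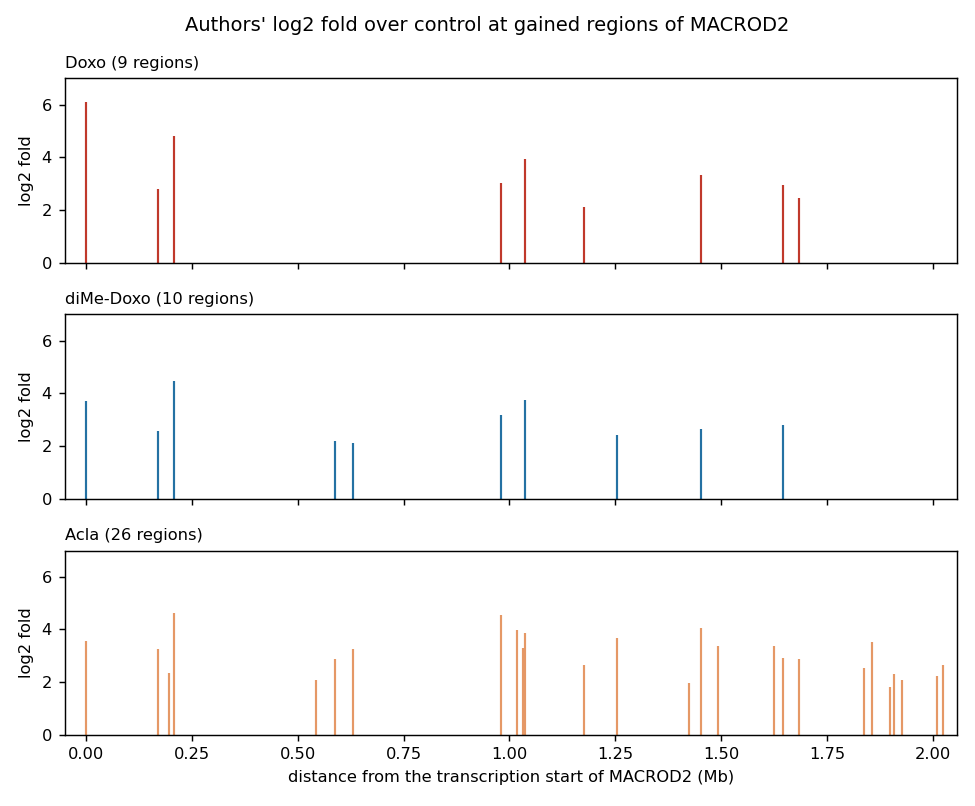
The authors' log2 fold over untreated cells (vertical axis) at each gained region of MACROD2, by distance from the transcription start (Mb, horizontal axis), 1 panel per drug. Each vertical line is a region. The line at the start reaches 6.11 with Doxo, and the panels hold 9 lines for Doxo, 10 for diMe-Doxo, and 26 in the panel of Acla, which was used at another dose.

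The region over the MACROD2 start, chr20:13975614-13977109, had the highest fold of the 28 Doxo regions. With diMe-Doxo and Acla other MACROD2 regions had higher folds. Reads of different drugs are not on 1 scale and are given beside the untreated ones. Its reads were 251 and 297 with Doxo, 144 and 103 with diMe-Doxo, 171 and 146 with Acla and 1 and 3 untreated. The log2 fold was 6.11 with Doxo (FDR 6.16e-09), 3.72 with diMe-Doxo (FDR 0.000128) and 3.56 with Acla (FDR 0.000238). The fold was higher with Doxo than with diMe-Doxo. This is the start whose CG-rich upstream sequence is printed above. RefSeq places SEL1L2 next to MACROD2 on this side.

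Inside MACROD2 the pattern was different. The lowest FDR for diMe-Doxo and Acla was at chr20:14184346-14185463, with 55 and 56 reads for Doxo, 111 and 105 for diMe-Doxo, 191 and 152 for Acla and 1 and 1 untreated. Its log2 fold was 4.80, 4.46 and 4.62, without the gap between Doxo and diMe-Doxo seen at the start. The widest region, chr20:14955017-14956766, had 14 and 19 reads with Doxo, 48 and 40 with diMe-Doxo, 205 and 126 with Acla and 1 and 1 untreated. There the log2 fold was 3.04 with Doxo (FDR 0.0186), 3.17 with diMe-Doxo (FDR 0.00515) and 4.56 with Acla (FDR 3.94e-05).

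In WWOX the region nearest the start, chr16:78136155-78137011, held 63 and 63 reads with Doxo, 63 and 34 with diMe-Doxo, 69 and 53 with Acla and 3 and 1 untreated. The log2 fold was 3.96 with Doxo (FDR 0.00017), 2.24 with diMe-Doxo (FDR 0.0343) and 2.07 with Acla (FDR 0.0418). As at the MACROD2 start, Doxo had a higher fold than diMe-Doxo. Deeper in WWOX, chr16:78734517-78735791 held 23 and 13, 54 and 31, and 77 and 69 reads with Doxo, diMe-Doxo and Acla, and 1 and 1 untreated. Here the log2 fold was 3.17 with Doxo, close to the 3.11 of diMe-Doxo (FDR 0.00852), and 3.38 with Acla (FDR 0.00243). A higher Doxo fold was not confined to the start of WWOX. At chr16:78808461-78809209, 676 kb from the start, the log2 fold was 3.81 with Doxo (FDR 0.00252) and 2.20 with diMe-Doxo (FDR 0.0766). The widest WWOX region, chr16:78599318-78600713, was gained with Acla alone, with 87 and 66 reads against 4 and 1 and a log2 fold of 2.06 (FDR 0.0365).

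In IMMP2L the lowest FDR for Doxo was at chr7:110852783-110853903, a region of Doxo alone. It held 101 and 112 reads against 7 and 1 untreated, a log2 fold of 3.71 (FDR 0.000553), and a peak was called there in 1 untreated library. At chr7:110442792-110444115, near the 3′ end, the reads were 22 and 34 with Doxo, 163 and 126 with diMe-Doxo, 169 and 121 with Acla and 6 and 1 untreated. The log2 fold there was 1.98 with Doxo (FDR 0.0777), 2.99 with diMe-Doxo (FDR 0.00178) and 2.49 with Acla (FDR 0.0111). In the 20% of IMMP2L next to the start Doxo gained 5 regions and diMe-Doxo 1, and in the 20% next to the 3′ end they gained 2 and 4. The lowest FDR for Acla was at chr7:110376059-110376663, with 115 and 74 reads against 1 and 1 and a log2 fold of 3.75 (FDR 0.000886). The widest region, chr7:110410746-110412920, was gained with Acla alone, with 300 and 210 reads against 16 and 1 and a log2 fold of 2 (FDR 0.08). At this widest region, too, a peak was called in 1 untreated library, and the untreated value of 1 read may stand for none. Its FDR was above 0.05 although its p was not, which the lists allow because they were limited by p. The same held for other listed regions, and among the IMMP2L regions of Doxo the FDR reached 0.0846.

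FHIT had 3 gained regions in all. One, chr3:60862596-60863930, was gained with all 3 drugs and held 21 and 32 reads with Doxo, 42 and 19 with diMe-Doxo, 97 and 66 with Acla and 1 and 1 untreated. Its log2 fold was 3.73 with Doxo (FDR 0.00291), 2.63 with diMe-Doxo (FDR 0.0381) and 3.54 with Acla (FDR 0.00176), and no peak was called there in the Doxo or diMe-Doxo libraries themselves. The region chr3:60536503-60537302 was gained with Doxo alone, with 39 and 33 reads against 1 and 1 and a log2 fold of 4.17 (FDR 0.000496). The region chr3:61207328-61208179 was gained with diMe-Doxo alone, with 47 and 35 reads against 1 and 3 and a log2 fold of 2.13 (FDR 0.0431).

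In diMe-Doxo the amino group of the sugar of Doxo is dimethylated. Dose and exposure time of both were equal. They were compared at the 14 regions of the 4 bodies that both lists hold, with the quasi-likelihood test of edgeR, adjusted by Benjamini-Hochberg over all 33140 shared regions and 2 libraries per drug. Of the 14 regions, 5 were higher and 1 lower with Doxo. Among all shared regions 28.9% were higher and 2.72% lower. With TMM in place of the authors' library factors, 4 of the 14 were higher and 1 lower, against 23.6% and 10.6% of all shared regions. With limma on the log2 signal 4 were higher and 1 lower, against 28.1% and 2.7%. Fewer of the 14 were higher without the second diMe-Doxo library, and the lower call was lost without the first library of either drug. Over all shared regions, too, leaving out any 1 library gave fewer calls in each direction. The median log2 difference of the 14 then ran from 0.20 to 0.49, against 0.18 to 0.42 for all shared regions. TMM moved the median log2 difference of all shared regions from 0.28 to -0.05, and directions of small differences are therefore relative to this shift. Regions that 1 of the drugs alone gained are not in this comparison.

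The MACROD2 start had the largest difference of the 14. Doxo exceeded diMe-Doxo there by 2.44 on the log2 scale (SE 0.22, edgeR adjusted p = 4.387e-26), in both libraries against both, and by 2.11 with TMM. Its 95% interval ran from 2.0 to 2.87. At the other MACROD2 region described above, chr20:14184346-14185463, the difference was 0.33 with an interval from -0.24 to 0.89 (edgeR adjusted p = 0.4568). The WWOX region nearest the start was higher with Doxo by 1.66 (SE 0.32, edgeR adjusted p = 1.352e-06), and so was chr16:78808461-78809209, 676 kb from the start, by 1.60 (SE 0.45, edgeR adjusted p = 0.001942). The second call was lost without the first Doxo or the second diMe-Doxo library. Likewise the IMMP2L region nearest its start, chr7:111192578-111193280, was higher with Doxo by 1.51 (SE 0.44, edgeR adjusted p = 0.002208), a call lost without the second diMe-Doxo library, at 1.02 (edgeR adjusted p = 0.2495).

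In the other direction 1 region passed the test. The IMMP2L region near the 3′ end, chr7:110442792-110444115, was lower with Doxo by a log2 difference of -1.08 (SE 0.31, edgeR adjusted p = 0.002588), a call lost without the first library of either drug. The next were chr7:110376059-110376663 in IMMP2L, with 16 and 16 reads for Doxo and 37 and 55 for diMe-Doxo, at -0.24 (edgeR adjusted p = 0.775), and the widest MACROD2 region at -0.13 (edgeR adjusted p = 0.891). Their 95% intervals ran from -1.12 to 0.64 and from -1.01 to 0.76, so these libraries could not separate the 2 compounds there. In FHIT the region gained with all drugs was higher with Doxo by 1.08 (SE 0.44, edgeR adjusted p = 0.04242). The FHIT call was lost with TMM, at 0.77 (edgeR adjusted p = 0.1711). It was also lost with DESeq2, at 1.09 (DESeq2 adjusted p = 0.1676), and with limma, at 1.12 (limma adjusted p = 0.05618). Leaving out 1 library gave differences from 0.64 to 1.73 there.

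**Figure D5:**
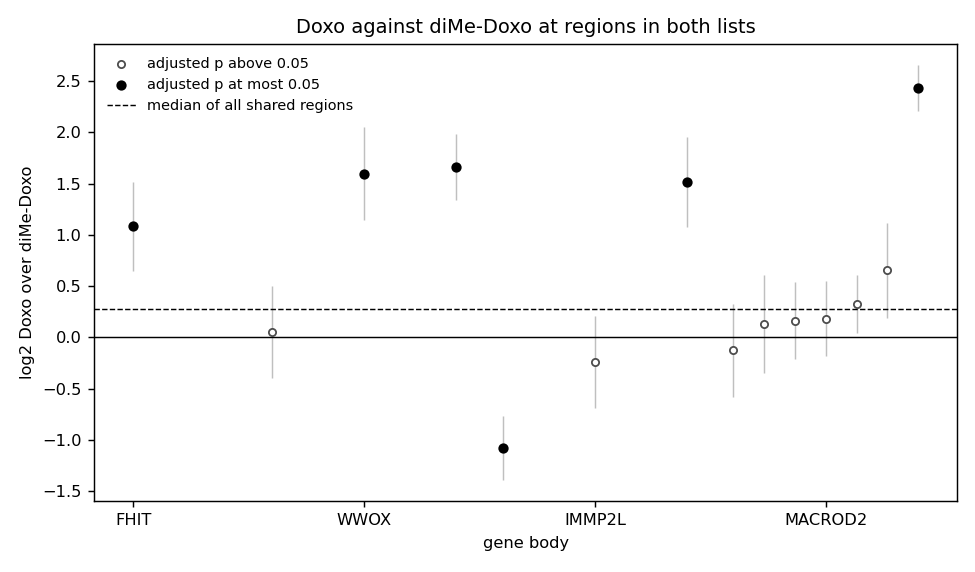
The log2 difference of Doxo over diMe-Doxo (vertical axis, edgeR) at the 14 regions of the 4 bodies in both lists, grouped by gene and ordered by value within a gene, with bars of 1 SE. Filled points have an adjusted p of at most 0.05, the dashed line marks the median of all shared regions, 0.28, and the highest point is the MACROD2 start at 2.44.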

How the data were processed

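ATAC-seq of K562 cells was analysed by the authors on GRCh37 with DiffBind, according to the submitters' processing notes. Which aligner, peak caller, normalization and test they used is not given in the sources used here. In the authors' deposited lists each region has log2 mean values, a log2 fold over untreated cells, a p-value and its FDR, the number of libraries with a peak, and the signal of each of 2 treated and 2 untreated libraries. The lists have no header, so these meanings were worked out from the values. The deposited signal was a read count times 1 factor per library. Dividing by the step between values gave whole reads within 0.1 reads for 100% of values. In the treated libraries of diMe-Doxo and Acla the lowest value is 9 to 16 reads, so there the step rests on the spacing of values and not on a value of 1 read. For that reason limma on the log2 signal, with 1 added, stands beside the count test. Control reads were identical across the 3 lists. Treated libraries held 3534855 to 7266289 reads in listed regions and untreated ones 120492 to 253175. Full depth is unknown.

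Members are listed regions overlapping the 4 gene bodies by at least 1 bp; another gene of the same rule is not reported here. The members, lists and rules were chosen with earlier results of these data known. In each gene the text names the region with the lowest FDR for each drug, the widest region and any region over the start, and, for Doxo against diMe-Doxo, the 3 regions of lowest adjusted p in each direction. Further regions that passed this test were chosen after their values were seen. The test was edgeR's quasi-likelihood test over the 33140 regions in both lists, with the authors' factors scaled to the shared controls, and was tested on simulated data. Alternatives were TMM, DESeq2, a minimum mean of 10 reads, each library left out in turn, stricter limits (FDR 0.01, log2 fold 2), flanks of 0.5 Mb and each gene left out. Those that need a peak in both treated libraries or that use limma were chosen after seeing the data. Transcription starts were taken as the end of each body on its strand. RefSeq promoters matched 4 of the 4 genes. Coordinates were copied from the lists, and whether their starts count from 0 or 1 is not stated. Tests ran in edgeR 4.0.16 and DESeq2 1.42.0 under R 4.3.3, other steps in pandas 2.3.3 and numpy 2.4.6 under Python 3.11.15.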

Additional observations from a re-analysis of the deposited data

Results flagged for a closer look

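Among the 3 regions of lowest p in each direction, Doxo and diMe-Doxo differed at 4 in the edgeR quasi-likelihood test, adjusted by Benjamini-Hochberg over 33140 regions. Of all 14 regions tested, 5 were higher and 1 lower with Doxo. The further calls, in IMMP2L near its start and in FHIT, are described above. The MACROD2 start was higher with Doxo by 2.44 on the log2 scale (adjusted p = 4.387e-26, from 4.16e-29 to 5.162e-10 over the alternatives). The WWOX region nearest the start was higher by 1.66 (adjusted p = 1.352e-06, at most 0.003829 over the alternatives), and the WWOX region chr16:78808461-78809209 by 1.60 (adjusted p = 0.001942, from 0.0002997 to 0.09441). Both Doxo libraries exceeded both diMe-Doxo libraries on the common scale at these 3 regions.

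The IMMP2L region chr7:110442792-110444115 differed by -1.08 (adjusted p = 0.002588, from 0.0002245 to 0.1228 over the alternatives).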

How the results depend on the processing

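No paired analysis was possible because the labels give the libraries no replicate numbers. With the stricter limits the counts in the 4 bodies for Doxo, diMe-Doxo and Acla were 11 of 28, 8 of 23 and 16 of 45. Of the whole lists these limits kept 48.8%, 38.1% and 42.8%. With a peak required in both treated libraries the counts were 15 of 28 for Doxo, 13 of 23 for diMe-Doxo and 38 of 45 for Acla. Of the whole lists this requirement kept 63.4%, 70.1% and 73.5%. The body to flank ratio without IMMP2L was 0.481 with diMe-Doxo and 0.569 with Acla, and without MACROD2 it was 0.270 with Acla. Leaving out 1 library gave 2 to 5 higher and 0 to 1 lower regions, and the lone library of that drug is then assumed to vary like the pair of the other. Of differences that did not pass the test, leaving out 1 library moved that of the IMMP2L region chr7:110376059-110376663 from -0.51 to 0.10, positive without the second diMe-Doxo library, and that of the widest MACROD2 region from -0.36 to 0.069, positive without the first Doxo library. DESeq2 gave 4 higher and 1 lower of the 14, of which 3 got no adjusted p. Over all 33140 shared regions it gave 8207 higher and 273 lower, and 5140 got no adjusted p. Limma on the log2 signal gave 4 higher and 1 lower of the 14, and the minimum of 10 reads removed no region. The causes were not tested, except that stricter limits and fewer genes leave fewer regions. Untreated libraries with 1 read limit the folds, and regions outside the lists were not analysed here.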
